A study of Danio rerio with 9 samples.

Results

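The genes carried by the mitochondrial genome were followed in zebrafish larvae (Danio rerio) that lack fam177a1a, or fam177a1a together with fam177a1b. They were taken as the rows of the count table whose name starts with mt-, which gave 13 of 28802 rows. All 13 are protein-coding: 7 encode subunits of complex I of the respiratory chain (mt-nd1, mt-nd2, mt-nd3, mt-nd4l, mt-nd4, mt-nd5 and mt-nd6), 1 encodes cytochrome b of complex III (mt-cyb), 3 encode subunits of complex IV (mt-co1, mt-co2 and mt-co3) and a pair encodes subunits of the ATP synthase, complex V (mt-atp6 and mt-atp8). No row with this prefix carries a ribosomal or transfer RNA name. RNA came from whole larvae at 8 days post fertilization, 7 larvae to a library, after depletion of ribosomal RNA. The 3 wild-type libraries are named AB in the table's header. Of the mutants, 3 libraries are from single mutants, homozygous for fam177a1a stl700, and 3 from double mutants, homozygous for both fam177a1a stl700 and fam177a1b stl746. Whether libraries come from separate clutches is not on record, so the p-values measure the spread between these libraries. The line that the mutants were bred in is not given in the sources used here, nor whether wild type and mutants were siblings. Differences of line or of maternal lineage therefore cannot be told apart from genotype.

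The vertebrate mitochondrial genome is a small circle that is transcribed from both strands into long precursors. Transfer RNAs lie between most of the coding and ribosomal genes, and their excision releases the messenger RNAs. The coding genes therefore start from shared precursors, and differences in their steady-state levels can reflect processing and stability as well as transcription. All of their proteins are built into oxidative phosphorylation complexes together with subunits from the nuclear genome, whereas complex II is encoded by the nucleus alone. In zebrafish larvae, muscle, heart and brain are rich in these complexes.

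The libraries held 17.0 to 24.7 M counts. The row named fam177a1 had 487 to 669 counts in wild type and 8 to 15 in the mutants. Single-mutant replicate 1 stands apart from its label: over the 21694 tested rows its log2(CPM + 1) values had Pearson correlations of 0.987 to 0.990 with the double-mutant libraries and of 0.982 with each of the other single mutants, while replicates 2 and 3 correlated by 0.991 with each other. Results that move without it are given with and without it. All 10 marker lists for larval tissues were detected, with no marker at 0 in every library. The summed level of 9 fast skeletal muscle genes was 37779 to 41688 CPM (counts relative to the library total, scaled with TMM factors) in wild type, 44666 to 52044 CPM in single-mutant larvae and 46873 to 48691 CPM in double-mutant larvae. Of these 9 genes, 5 were higher in the single mutants and 2 in the double mutants. As background for these and the other marker counts, 19.5% of all tested rows were higher and 22.6% lower in the single mutants. In the double mutants these shares were 14.2% and 18.0%. The summed level of 6 heart genes was 151 to 154, 170.0 to 184 and 161 to 176 CPM in the same order, with 2 genes higher in the single mutants and 1 higher and 1 lower in the double mutants. For 5 neuronal genes the sums were 558 to 594, 604 to 699 and 617 to 656 CPM, with 4 and 1 genes higher. For 5 liver genes they were 4115 to 4663, 4545 to 5763 and 5213 to 5443 CPM, with 3 genes higher in each mutant genotype and 1 lower in the double mutants. Lower in the mutants were the sums of 4 gut genes (1858 to 1949 CPM in wild type, 1270.5 to 1377 and 1281 to 1389 CPM in single- and double-mutant larvae; 3 of 4 genes fell in each) and of 4 epidermal genes (7677 to 8121, 4219.7 to 5738 and 5298 to 6972 CPM; 3 and 2 genes fell). For 5 ionocyte genes the sums were 180.1 to 188.3, 169.8 to 193.6 and 163.5 to 172.2 CPM in wild type, single and double mutants. Sums of 4 photoreceptor genes were 1395 to 1466, 1444 to 1532 and 1350 to 1392 CPM. Both sums lay below wild type in the double mutants and overlapped it in the single mutants. Among the ionocyte genes 1 was lower in the single mutants, and 1 was higher and 1 lower in the double mutants. Among the photoreceptor genes 1 was higher and 1 lower in the single mutants, and 1 higher and 2 lower in the double mutants. The sums of 5 erythrocyte and 4 exocrine pancreas genes overlapped wild type in each mutant genotype. The erythrocyte genes split in direction, with 1 higher and 3 lower in the single mutants and 2 higher and 3 lower in the double mutants. Of the exocrine pancreas genes 1 was higher in the single mutants and 0 were called in the double mutants. The part of these tissue markers in the results below was not tested, and in whole larvae fewer cells of a type and less RNA per cell cannot be told apart.

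The 3 classes of mitochondrial RNA were compared through further rows of the table. Besides the 13 coding rows, 24 rows are named after the mitochondrial sequence record: 2 have the lengths of ribosomal RNAs, 952 and 1683 bases, and 22 have lengths of 68 to 77 bases. RefSeq lists 2 ribosomal and 22 transfer RNAs of these same lengths on the zebrafish mitochondrial genome, with 952 bases for mt-rnr1 and 1683 bases for mt-rnr2, but the deposited table does not pair the rows with gene names. They are called rRNA-length and tRNA-length rows here.

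Coding mitochondrial RNA took a larger share of each library in the mutants, while the rRNA-length share differed less. The 13 coding rows held 2.21%, 2.33% and 2.15% of all counts in wild type, 2.51%, 2.70% and 2.46% in single-mutant larvae and 2.43%, 2.34% and 2.46% in double-mutant larvae. The means were 2.23% ± 0.0931, 2.56% ± 0.126 and 2.41% ± 0.0631 (SD, n = 3 each). Each mutant library lay above each wild-type library, although double-mutant replicate 2 was above wild-type replicate 2 by less than the SD of either genotype. The 2 rRNA-length rows held 1.31%, 1.32% and 1.33% in wild type, 1.33%, 1.55% and 1.34% in single-mutant larvae and 1.31%, 1.27% and 1.38% in double-mutant larvae. These ranges overlap between wild type and the double mutants, and single-mutant replicate 2 stands above all others. A share depends on what else was counted: the signal recognition particle RNA, Metazoa_SRP, held 3.83% to 4.80% in wild type, 4.79% to 5.41% in single-mutant larvae and 5.98% to 6.98% in double-mutant larvae. The cytosolic ribosomal row 5_8S_rRNA held 0.000901% to 0.00190% of counts in wild type, 0.000168% to 0.000175% in single-mutant larvae and 0.000145% to 0.000238% in double-mutant larvae. The part of ribosomal RNA depletion in the rRNA-length values was not tested.

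The 952-base row, which has the length of the small ribosomal RNA mt-rnr1, showed no call. It was at 1422 ± 175 CPM in wild type, 1425 ± 78.8 CPM in single-mutant larvae and 1409.9 ± 43.3 CPM in double-mutant larvae. The 1683-base row, with the length of the large ribosomal RNA mt-rnr2, was at 11413, 11542 and 11480.3 CPM in wild type, 11767, 14256 and 12633 CPM in single-mutant larvae and 11806, 11436 and 12476 CPM in double-mutant larvae. It was called higher in the single mutants (log2 fold change 0.17 with an SE of 0.06 and edgeR adjusted p = 0.0468) and not in the double mutants (log2 fold change 0.05 with an SE of 0.06 and edgeR adjusted p = 0.568). This call depended on the tool and scaling, with an adjusted p of 0.063 by DESeq2, 0.0515 by limma-voom, 0.0778 with the replicate block, 0.124 with library totals and 0.0673 with only the 6 libraries compared. It also rested on single libraries: without wild-type replicate 2, wild-type replicate 3 or single-mutant replicate 2 the adjusted p was 0.09, 0.082 and 0.136.

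The tRNA-length rows held few counts. Together the 22 rows held 267, 176 and 171 counts in wild type, 153, 161 and 135 in single-mutant larvae and 191, 175 and 196 in double-mutant larvae. Of the 22 rows, 4 passed the filter on low counts, and 1 had no count in any library. A limit of 3 counts corresponds to 0.121 to 0.178 CPM, and the rows that did not pass the filter were not tested. Among them, tRNA-length row 23 had counts of 28, 8 and 13 in wild type, 2, 2 and 0 in single-mutant larvae and 3, 3 and 6 in double-mutant larvae. Row 15 had 4, 5 and 4, then 0, 1 and 0, then 0, 1 and 2. In the other direction, row 2 had 3, 1 and 1, then 6, 3 and 5, then 7, 3 and 8. The CPM of these rows did not overlap between wild type and either mutant genotype. They were picked after their values were seen. The row with the most counts, of 72 bases, had counts of 127, 84 and 75 in wild type, 63, 71 and 65 in single-mutant larvae and 102, 88 and 90 in double-mutant larvae, and was not called (log2 fold change −0.18 and 0.26, edgeR adjusted p = 0.469 and 0.302). Of the 4 tested rows, 1 of 70 bases was called in the single mutants, where 42.0% of all rows were called. It had counts of 10, 3 and 2 in wild type, 18, 10 and 13 in single-mutant larvae and 3, 10 and 7 in double-mutant larvae. Its log2 fold change in the single mutants was 1.77 with an SE of 0.55 and edgeR adjusted p = 0.0167. The row passed the filter through its single-mutant counts, so a call of higher there was favoured by the filter. Without wild-type replicate 2, wild-type replicate 3 or single-mutant replicate 1 its adjusted p was 0.0553, 0.0692 and 0.0542. Whether these counts come from mature transfer RNAs or from uncut precursors cannot be told apart in this table.

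**Figure D1:**
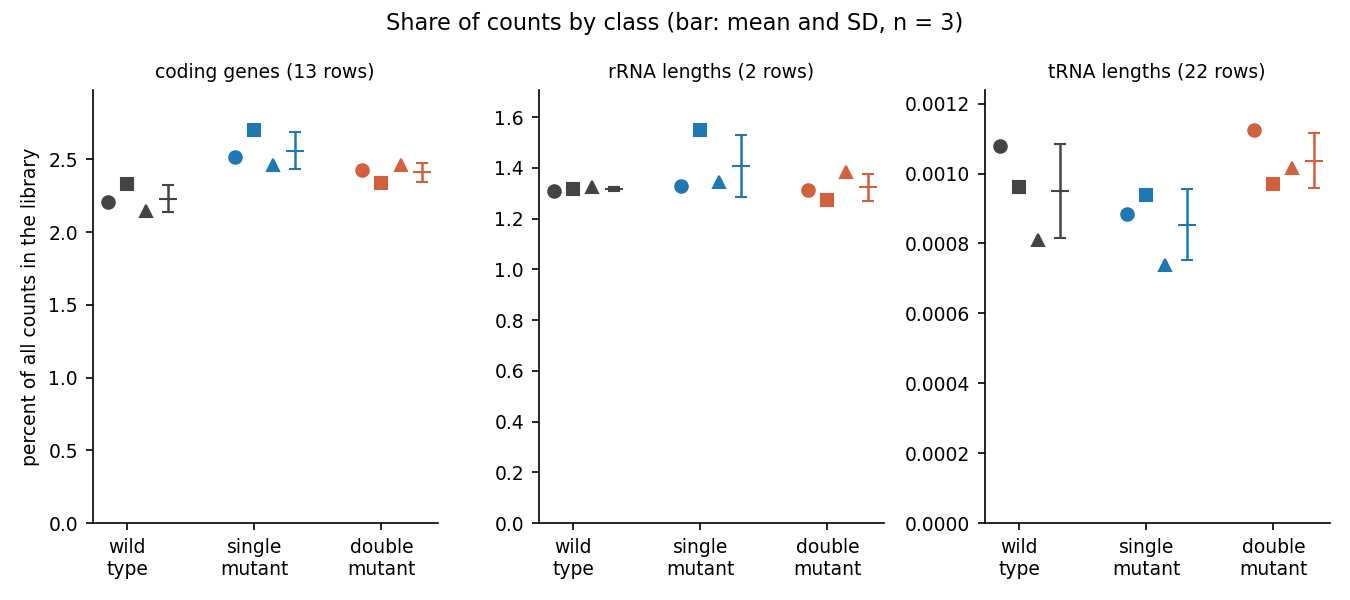
Percent of all counts in each library (vertical axis, from 0) on the 13 coding rows, the 2 rRNA-length rows and the 22 tRNA-length rows, by genotype; circles, squares and triangles are replicates 1, 2 and 3, and bars give the mean and SD (n = 3). The coding share lies at 2.15% to 2.33% in wild type and at 2.34% to 2.70% in the mutants, and the tRNA-length share stays near 0.001%.

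Per kilobase of row length, the coding genes spanned a wide range of levels, and complex IV led. In wild type, mt-co1, the catalytic subunit of cytochrome c oxidase, stood at 5203 ± 287 CPM per kilobase. It was followed by mt-co2, the subunit that accepts electrons from cytochrome c, at 4661 ± 289 CPM per kilobase and by mt-co3, a structural core subunit, at 3719.5 ± 214 CPM per kilobase. Cytochrome b, mt-cyb, was at 1781 ± 66.7 and mt-atp6 at 1379 ± 34.5 CPM per kilobase. The 7 complex I genes lay below these, from 1049 ± 32.4 CPM per kilobase for mt-nd1 to 432 ± 13.6 CPM per kilobase for mt-nd4l. The lowest was mt-atp8, at 97.7 ± 10.8 CPM per kilobase.

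Most steps in this order were larger than the spread between libraries. In wild type, neighbours whose ranges overlapped were mt-nd6 with mt-nd4 and mt-nd3 with mt-nd5, and every other step between neighbours was clear of overlap. In the single mutants mt-nd6 (919 ± 41.4 CPM per kilobase) overlapped mt-nd2 (914 ± 13.8 CPM per kilobase), which lay above it in wild type. In the double mutants mt-atp6 (1745 ± 37.6 CPM per kilobase) overlapped mt-cyb (1799 ± 64.4 CPM per kilobase), and mt-nd3 (772 ± 31.5) overlapped mt-nd4 (752 ± 18.0 CPM per kilobase). Complex IV genes remained the highest 3 and mt-atp8 the lowest in each genotype.

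**Figure D2:**
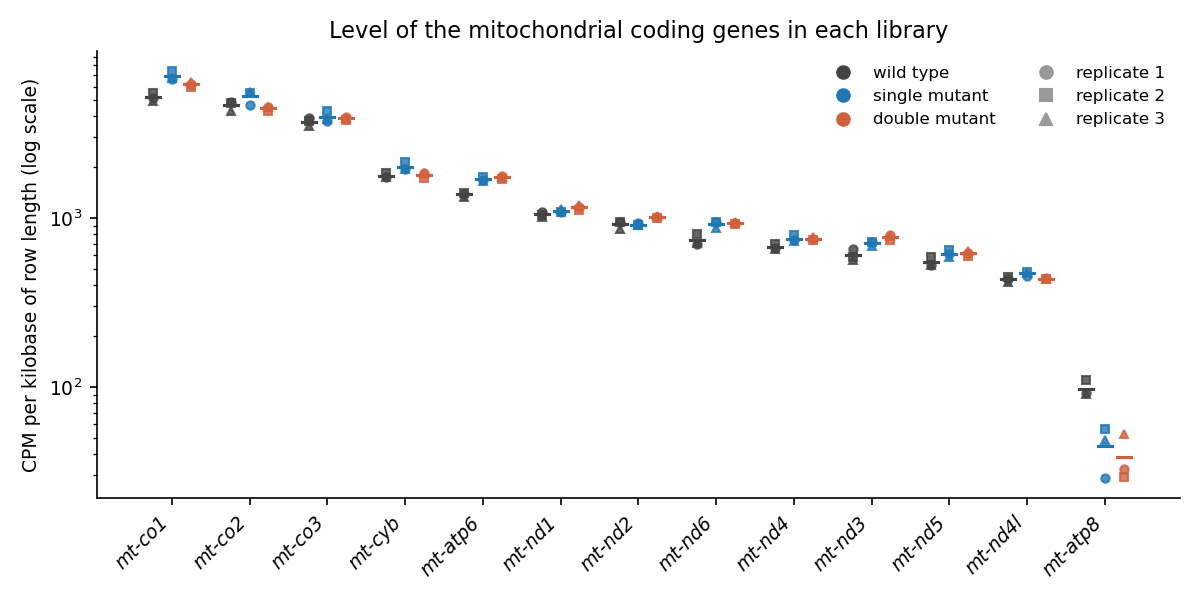
Level of each coding gene in CPM per kilobase of row length (vertical axis, logarithmic) in every library, ordered by the wild-type mean; colours are genotypes, symbols are replicates and short lines are means of 3 libraries. The levels run from 5203 for mt-co1 to 97.7 for mt-atp8 in wild type, and the largest gap between genotypes is at mt-atp8.

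Against wild type, most coding genes that changed rose by a modest amount and mt-atp8 fell. In the single mutants 7 of the 13 genes rose, 1 fell and 5 did not pass the test, where 19.5% of all 21694 tested rows rose and 22.6% fell, 42.0% in all. Of the 13, 6 rose in the double mutants, 1 fell and 6 did not pass, against 14.2% and 18.0% of all rows, 32.2% in all. The median log2 fold change of the 13 genes was 0.17 in the single mutants and 0.14 in the double mutants, beside −0.01 over all tested rows in both. Levels of the mutant and wild-type libraries did not overlap for 9 of the 13 genes in each comparison, beside 49.0% and 50.1% of all rows. Both comparisons share the wild-type libraries. Without single-mutant replicate 2, 5 of the 13 were called in the single mutants, and without single-mutant replicate 1 the counts stayed at 8 and 7. The 8 were then not the same genes, as mt-co2 gained a call (edgeR adjusted p = 0.00441) and mt-nd5 lost its own (0.0617). For mt-nd3, mt-nd6, mt-co1, mt-atp6 and mt-atp8 the call and direction were the same under all 19 alternatives in both comparisons.

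**Figure D3:**
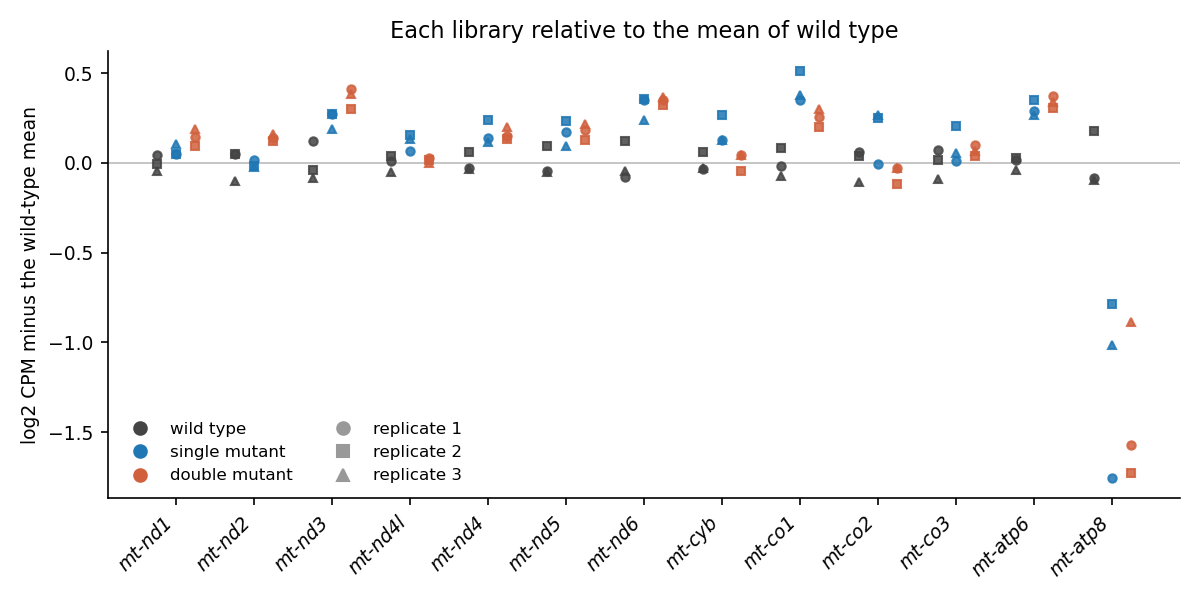
Log2 CPM of each coding gene in each library minus the mean log2 CPM of the 3 wild-type libraries (vertical axis); colours are genotypes and symbols are replicates. For mt-nd3, mt-nd6, mt-co1 and mt-atp6 all 6 mutant libraries lie above all 3 wild-type libraries, and for mt-atp8 all 6 lie below.

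In complex I, which takes electrons from NADH and pumps protons, the genes mt-nd6 and mt-nd3 rose the most. Light-strand mt-nd6, the coding gene read from the opposite strand to the other 12, was at 363, 417 and 371 CPM in wild type, 489, 490.0 and 452 CPM in single-mutant larvae and 488, 479 and 493 CPM in double-mutant larvae. The mutant libraries all exceeded wild type, and the difference was 24.3% in the single mutants (log2 fold change 0.31 with an SE of 0.07 and edgeR adjusted p = 0.00149) and 26.8% in the double mutants (log2 fold change 0.34 with an SE of 0.07 and edgeR adjusted p = 0.00116). The strand setting of the counting is not given in the sources used here, so reads of mt-nd6 and of RNA from the opposite strand at that site cannot be told apart. A small membrane subunit, mt-nd3, was at 229, 205 and 198 CPM in wild type, 254, 254 and 239.7 CPM in single-mutant larvae and 279.9, 259 and 274 CPM in double-mutant larvae. Here too the mutants were above every wild-type library (log2 fold change 0.24 with an SE of 0.07 and edgeR adjusted p = 0.0117 in the single mutants; log2 fold change 0.36 with an SE of 0.07 and edgeR adjusted p = 0.00113 in the double mutants).

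The proton-pumping subunits mt-nd4 and mt-nd5 rose by smaller amounts. In the libraries mt-nd4 was at 913, 971 and 907 CPM in wild type, 1022, 1097 and 1009 CPM in single-mutant larvae and 1030.5, 1019 and 1067 CPM in double-mutant larvae. Its log2 fold change was 0.16 (edgeR adjusted p = 0.0339) and 0.16 (edgeR adjusted p = 0.0485), close to the threshold of 0.05. The long subunit gene mt-nd5 was at 963, 1064 and 963 CPM in wild type, 1121, 1172 and 1064 CPM in single-mutant larvae and 1129, 1089 and 1157 CPM in double-mutant larvae. Its log2 fold change was 0.17 (edgeR adjusted p = 0.0414) and 0.17 (edgeR adjusted p = 0.0421). Wild-type replicate 2 was at the level of single-mutant replicate 3 for mt-nd5. These calls rested on single libraries. For the single mutants, without wild-type replicate 3 or single-mutant replicate 2 the adjusted p rose to 0.058 and 0.0666 for mt-nd4 and to 0.084 and 0.0773 for mt-nd5, which was also at 0.0617 without single-mutant replicate 1. For the double mutants, mt-nd4 was not called without wild-type replicate 1 or 3 or any 1 of the double mutants (adjusted p 0.0562 to 0.11), and mt-nd5 was not called without wild-type replicate 1 or 3 or double-mutant replicate 1 or 3 (0.0675 to 0.102). With the replicate number as a block the adjusted p was 0.0582 for mt-nd5 in the single mutants and 0.0658 and 0.0567 for mt-nd4 and mt-nd5 in the double mutants.

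The remaining complex I genes, which encode hydrophobic subunits of the membrane arm, did not pass the test. The first coding gene after the ribosomal RNAs, mt-nd1, was at 993 to 1056 CPM in wild type, 1057 to 1099 CPM in single-mutant larvae and 1092 to 1168 CPM in double-mutant larvae (log2 fold change 0.07 and 0.14, edgeR adjusted p = 0.358 and 0.0613). For mt-nd2 the log2 fold changes were −0.01 and 0.14 (edgeR adjusted p = 0.929 and 0.0811), and the sign in the single mutants turned with the scaling. Under 12 alternatives mt-nd1 and under 4 alternatives mt-nd2 passed the test in the double mutants. The short gene mt-nd4l, which overlaps the start of mt-nd4, had log2 fold changes of 0.12 and 0.01 (edgeR adjusted p = 0.158 and 0.89), the latter below 0 with library totals alone.

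The 1 mitochondrial gene of complex III, mt-cyb, rose in the single mutants. It was at 1986, 2120.2 and 1991 CPM in wild type, 2217, 2442 and 2216 CPM in single-mutant larvae and 2098, 1968 and 2093 CPM in double-mutant larvae. The single-mutant libraries lay above wild type, while the double mutants overlapped it. Against wild type, mt-cyb had a log2 fold change of 0.17 (SE 0.06, edgeR adjusted p = 0.0282) in the single mutants and 0.01 (SE 0.06, edgeR adjusted p = 0.878) in the double mutants. Without single-mutant replicate 2 the first was no longer called (adjusted p = 0.0667). The difference between the mutants was −0.16 and did not pass (edgeR adjusted p = 0.182).

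In complex IV, which passes electrons to oxygen, mt-co1 rose the most of the coding genes in the single mutants by log2 fold change. It was at 7975, 8555 and 7679 CPM in wild type, 10274, 11494 and 10465 CPM in single-mutant larvae and 9618, 9272 and 9940.1 CPM in double-mutant larvae. The difference from wild type was 33.1% in the single mutants (log2 fold change 0.41 with an SE of 0.06 and edgeR adjusted p = 6.59e-05) and 19.1% in the double mutants (log2 fold change 0.25 with an SE of 0.06 and edgeR adjusted p = 0.00434). All 6 mutant libraries were above wild type, and all double mutants were below all single mutants. Its partner mt-co2 was at 3360.4, 3309.7 and 2992 CPM in wild type, 3208, 3822 and 3874 CPM in single-mutant larvae and 3157, 2967 and 3152 CPM in double-mutant larvae. These ranges overlap between wild type and each mutant genotype (log2 fold change 0.17 and −0.06, edgeR adjusted p = 0.0636 and 0.571). Of the single mutants, replicate 1 was the library within the wild-type range. Against wild type, mt-co2 passed the test in the single mutants under 10 of the 19 alternatives. The lowest edgeR adjusted p, 0.00441, came without single-mutant replicate 1. The third gene, mt-co3, was at 2741 to 3073 CPM, 2941 to 3363 CPM and 2999 to 3130.5 CPM (log2 fold change 0.09 and 0.07, edgeR adjusted p = 0.27 and 0.452).

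The 2 genes of complex V changed in opposite directions. The gene mt-atp6 encodes the channel subunit through which protons return, and it was at 953, 960.5 and 916 CPM in wild type, 1151, 1203 and 1136 CPM in single-mutant larvae and 1219, 1168 and 1194 CPM in double-mutant larvae. The mutant libraries were all above wild type, by 23.3% (log2 fold change 0.30 with an SE of 0.06 and edgeR adjusted p = 0.000465) and 26.6% (log2 fold change 0.34 with an SE of 0.06 and edgeR adjusted p = 0.000280). The gene mt-atp8 encodes a short stalk-associated subunit and overlaps the start of mt-atp6 on the same transcript. It was at 15.2, 18.2 and 15.0 CPM in wild type, 4.75, 9.30 and 7.94 CPM in single-mutant larvae and 5.40, 4.84 and 8.68 CPM in double-mutant larvae. Each mutant library lay below each wild-type library (log2 fold change −1.14 with an SE of 0.25 and edgeR adjusted p = 0.00428 in the single mutants; log2 fold change −1.34 with an SE of 0.25 and edgeR adjusted p = 0.00243 in the double mutants). Replicate 1 of the single mutants and replicates 1 and 2 of the double mutants were the lowest.

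The value of mt-atp8 rests on few counts for a mitochondrial gene: 376, 341 and 327 in wild type, 83, 157 and 139 in single-mutant larvae and 91, 87 and 166 in double-mutant larvae. Its row is 165 bases long, and how reads in the overlap with mt-atp6 were assigned is not given in the sources used here. Short rows were looked at as a group, chosen after the values were seen. Of 66 tested rows of up to 200 bases, 19 were lower and 8 higher in the single mutants. This is 28.8% lower beside 22.5% of longer rows and 12.1% higher beside 19.5%. The double mutants had 13 lower and 5 higher, with 19.7% lower beside 18.0% and 7.58% higher beside 14.2%. The median log2 fold change of short rows was −0.251 beside −0.006 in the single mutants and −0.096 beside −0.014 in the double mutants. The part of row length or of the overlap in the mt-atp8 values was not tested.

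Ratios between genes within a library do not depend on the scaling of libraries. Per kilobase, mt-atp8 had 6.59, 7.84 and 6.79 counts for each 100 of mt-atp6 in wild type, 1.71, 3.21 and 2.90 in single-mutant larvae and 1.84, 1.72 and 3.01 in double-mutant larvae. The ranges of the mutants are clear of wild type. For each 100 counts of mt-co1, mt-co2 had 94.6, 86.8 and 87.5 in wild type, 70.1, 74.6 and 83.1 in single-mutant larvae and 73.7, 71.8 and 71.2 in double-mutant larvae, so that wild type was again apart from both. The ratio of mt-co3 to mt-co1, which are not neighbours, was also lower in each mutant library, at 56.5 to 57.7 and 60.6 to 64.2 per 100 beside 68.2 to 76.0 in wild type. The denominator of both ratios, mt-co1, itself rose in both mutants.

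The light-strand gene mt-nd6 stood higher against both of its neighbours in the mutants. For each 100 counts of mt-cyb, mt-nd6 had 40.2, 43.2 and 41.0 in wild type, 48.5, 44.1 and 44.9 in single-mutant larvae and 51.1, 53.5 and 51.8 in double-mutant larvae per kilobase, and the 3 genotypes did not overlap. For each 100 counts of mt-nd5, mt-nd6 had 132 to 137 in wild type, 147 to 153 in single-mutant larvae and 149.6 to 154 in double-mutant larvae, without overlap with wild type. The ratio of mt-nd4l to mt-nd4 was 63.3 to 65.7, 60.7 to 64.8 and 56.0 to 59.2 per 100, lower in the double mutants and overlapping in the single mutants. Of the length-scaled sum of the 13 coding genes, mt-co1 made up 23.9% ± 0.622 in wild type, 27.3% ± 0.497 in single-mutant larvae and 26.0% ± 0.354 in double-mutant larvae (SD, n = 3 each). With 3 libraries a genotype, an exact permutation test of a single ratio could not pass 0.05, and the ratios are given without one.

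**Figure D4:**
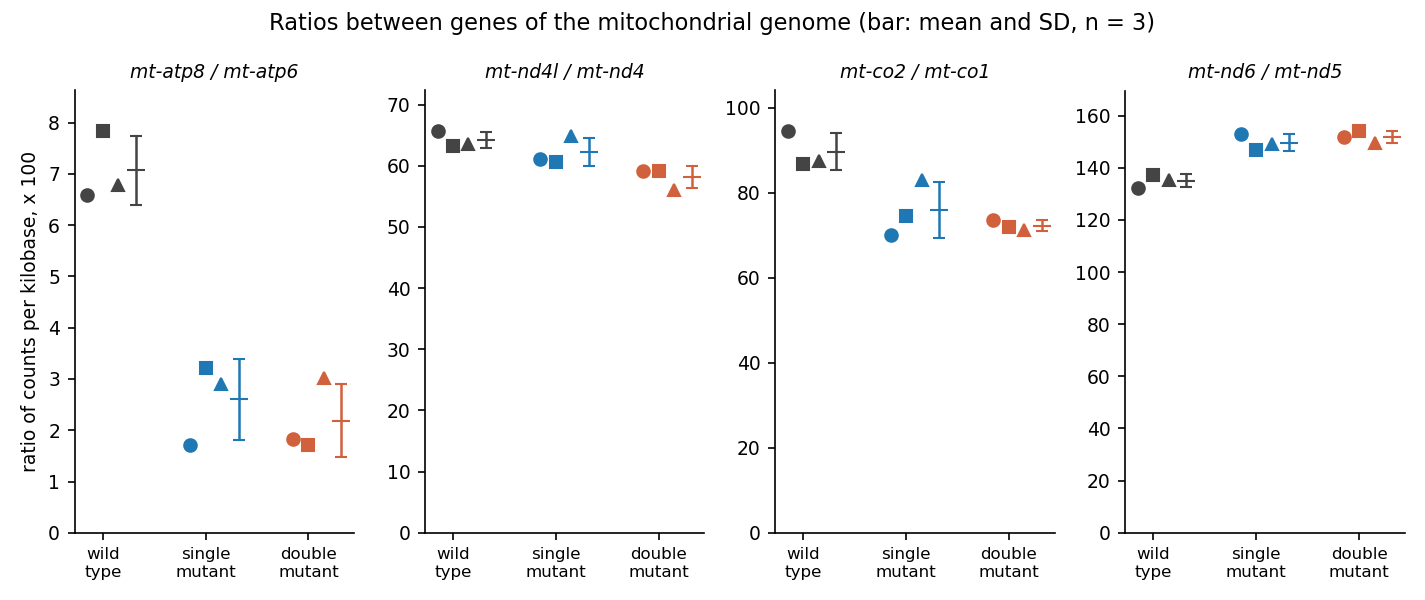
Counts per kilobase of mt-atp8, mt-nd4l, mt-co2 and mt-nd6 for each 100 counts per kilobase of mt-atp6, mt-nd4, mt-co1 and mt-nd5 (vertical axes, from 0) in every library; circles, squares and triangles are replicates 1, 2 and 3, and bars give the mean and SD (n = 3). The ratio of mt-atp8 to mt-atp6 is 6.59 to 7.84 in wild type and 1.71 to 3.21 and 1.72 to 3.01 in the 2 mutant genotypes.

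Between the 2 mutant genotypes none of the 13 coding genes differed by edgeR, DESeq2 or limma-voom, while 1.67% of all rows were called, 0.668% higher and 1.0% lower. At an unadjusted p under 0.05 there were 4: mt-co2 (log2 fold change −0.23), mt-co1 (−0.16), mt-cyb (−0.16) and mt-nd2 (0.15). The share of all rows at this unadjusted limit was not counted, so whether 4 of 13 exceeds the background cannot be told. Leaving out single-mutant replicate 1 raised the calls over all rows from 362 to 3860 and brought mt-co2 past the threshold (edgeR adjusted p = 0.00276), lower in the double mutants. The other 12 coding genes were not called without that library either. Levels did not overlap between the mutants for 6 of the 13 genes, beside 20.2% of all rows: mt-cyb, mt-co1, mt-co2 and mt-nd4l were lower in each double-mutant library than in each single-mutant library, and mt-nd2 and mt-nd3 were higher.

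The nuclear subunits of the same complexes were set beside the mitochondrial ones, from lists written by complex. The complex V list also holds atp5if1a and atp5if1b, which encode inhibitors of the enzyme and are counted with the subunits here. Both were called lower in the single mutants, and atp5if1a also in the double mutants. Of 89 tested nuclear subunits, 28 fell and 3 rose in the single mutants, and 25 fell and 1 rose in the double mutants, which is 34.8% and 29.2% called beside 42.0% and 32.2% of all rows. Their median log2 fold change was −0.13 and −0.12, where that of the 13 mitochondrial genes was 0.17 and 0.14. The summed nuclear subunits held 1.27%, 1.19% and 1.18% of all counts in wild type, 1.14%, 1.05% and 1.08% in single-mutant larvae and 1.098%, 1.08% and 1.08% in double-mutant larvae, so wild-type replicate 1 was the highest. Without that library 10 and 9 of the nuclear subunits were called, 5 and 6 of them lower, with medians of −0.05 and −0.04. Counts also dropped without other libraries: to between 12 and 19 in the single mutants without single-mutant replicate 2 or 3 or any 1 double mutant, and to 9 or 10 in the double mutants without any 1 double mutant. The mitochondrial genes, without wild-type replicate 1, had 9 and 7 calls and medians of 0.19 and 0.17. Over all rows that refit gave 7536 and 5488 calls and medians of 0.03 and 0.01.

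**Figure D5:**
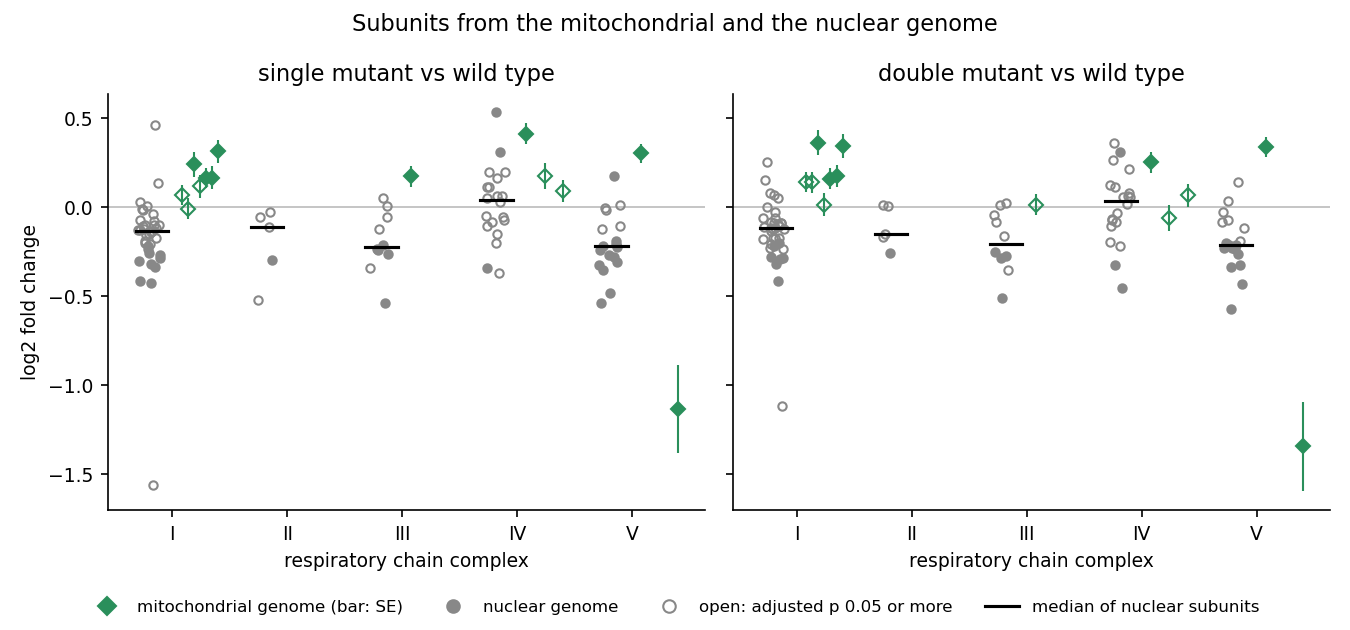
Log2 fold change against wild type (vertical axis) of subunits from the mitochondrial genome (diamonds, with the SE) and the nuclear genome (circles) by respiratory chain complex, in the single mutants (left) and double mutants (right); open symbols have an adjusted p of 0.05 or more, and black lines are medians of the nuclear subunits. Nuclear medians lie between −0.22 and 0.04 in the single mutants, and mt-atp8 is at −1.14 and −1.34.

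In complexes I and II the calls among nuclear subunits were few and all lower. Of 36 complex I genes, 9 fell in the single mutants and 7 in the double mutants, 25.0% and 19.4% beside 42.0% and 32.2% of all rows. Among them ndufab1b, the acyl carrier protein of mitochondria, was at 52.3 ± 6.88 CPM in wild type, 39.0 ± 3.58 CPM in single-mutant larvae and 42.8 ± 0.576 CPM in double-mutant larvae and fell in both (log2 fold change −0.42 and −0.29, edgeR adjusted p = 0.00282 and 0.0324). The accessory subunit ndufa6 was at 64.1 ± 10.15 CPM in wild type, 48.2 ± 1.78 CPM in single-mutant larvae and 48.2 ± 3.25 CPM in double-mutant larvae (log2 fold change −0.41 and −0.41, edgeR adjusted p = 0.00440 and 0.00614). Without wild-type replicate 1 its adjusted p was 0.0557 and 0.059, and 0.0528 in the double mutants without double-mutant replicate 1. Without wild-type replicate 1, edgeR called 1 complex I gene in the single mutants and 0 in the double mutants. The call of ndufab1b in the double mutants was thus also lost without that library. Of 5 complex II genes 1, sdhdb, a membrane anchor, fell in each (log2 fold change −0.29 and −0.26, edgeR adjusted p = 0.0221 and 0.0493). In both comparisons that call was lost in 7 of the 9 refits that each leave out a library, wild-type replicates 1 and 2 among them (adjusted p up to 0.219 and 0.326).

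Complex III had 5 of 10 nuclear genes lower in the single mutants and 4 in the double mutants, 50.0% and 40.0% beside 42.0% and 32.2% of all rows. The Rieske iron-sulfur protein gene uqcrfs1, which hands electrons to cytochrome c1, was at 227 ± 18.1 CPM in wild type, 156 ± 10.02 CPM in single-mutant larvae and 159 ± 2.65 CPM in double-mutant larvae. It fell in both (log2 fold change −0.54 and −0.51, edgeR adjusted p = 4.62e-05 and 0.000120) and under each alternative. Without wild-type replicate 1, 1 and 2 of the complex III genes were called, and without single-mutant replicate 2 there was 1 in the single mutants. In complex IV, 2 of 20 rose and 1 fell in the single mutants, and 1 rose and 2 fell in the double mutants, 15.0% called in each. The subunit gene cox6c was at 153 ± 14.5 CPM in wild type, 189.7 ± 7.32 CPM in single-mutant larvae and 189.6 ± 0.977 CPM in double-mutant larvae and rose in both (log2 fold change 0.31 and 0.31, edgeR adjusted p = 0.00338 and 0.00476). Without single-mutant replicate 1 there were 5 complex IV calls in the single mutants, and without double-mutant replicate 2 or 3 there was 1 in the double mutants. The other that rose in the single mutants was cox5b2 (log2 fold change 0.53, edgeR adjusted p = 0.00528). Lower in both was cox6b1 (log2 fold change −0.34 and −0.33, edgeR adjusted p = 0.0156 and 0.0252). In the double mutants cox4i1l also fell (log2 fold change −0.45, edgeR adjusted p = 0.0398). Leaving out a library in turn lost the cox6b1 call in 3 refits in each comparison and that of cox4i1l in 6.

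In complex V, 12 of 18 nuclear genes fell and 1 rose in the single mutants, and 11 fell in the double mutants, 72.2% and 61.1% called beside 42.0% and 32.2% of all rows. The membrane subunit gene atp5mea was at 42.4 ± 3.40 CPM in wild type, 29.2 ± 0.730 CPM in single-mutant larvae and 31.4 ± 1.37 CPM in double-mutant larvae (log2 fold change −0.54 and −0.43, edgeR adjusted p = 0.000151 and 0.00124). The inhibitor of ATP hydrolysis by the enzyme, atp5if1a, was at 76.0 ± 4.10 CPM in wild type, 54.4 ± 5.98 CPM in single-mutant larvae and 51.2 ± 3.78 CPM in double-mutant larvae (log2 fold change −0.48 and −0.57, edgeR adjusted p = 0.000625 and 0.000256). The median over the 18 was −0.22 and −0.21, so the median of the nuclear complex V genes and mt-atp6 lay on opposite sides of 0. The other mitochondrial gene of complex V, mt-atp8, lay on the same side as that median. Without wild-type replicate 1, 4 and 5 of the 18 were called and the medians were −0.14 and −0.15. Leaving out any 1 double mutant gave 7 in the single mutants and 4 in the double mutants, and single-mutant replicates 2 and 3 gave 6 and 7 in the single mutants. Over all rows, calls with a library left out in turn were 7327 to 10363 in the single mutants, from 9116. In the double mutants they were 5230 to 8697, from 6990.

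Most genes listed for the replication and nucleoid of the mitochondrial genome fell in the single mutants. Of these 12 genes, 11 fell in the single mutants and 7 in the double mutants. This is 91.7% and 58.3% called beside 42.0% and 32.2% of all rows, with medians of −0.62 and −0.53. The replicative polymerase gene polg was at 15.1 ± 0.310 CPM in wild type, 8.16 ± 0.192 CPM in single-mutant larvae and 10.1 ± 0.514 CPM in double-mutant larvae (log2 fold change −0.89 and −0.57, edgeR adjusted p = 1.73e-05 and 0.000837). The nuclease gene endog fell in both, with log2 fold changes of −1.01 and −1.02 (edgeR adjusted p = 0.000225 and 0.000306). Primase-polymerase primpol was at 14.6 ± 0.832 CPM in wild type, 8.99 ± 1.30 CPM in single-mutant larvae and 7.64 ± 1.67 CPM in double-mutant larvae, and fell in both (log2 fold change −0.70 and −0.94, edgeR adjusted p = 0.00188 and 0.000331). Some of these genes, such as primpol, top3a and rnaseh1, also act in the nucleus. Without single-mutant replicate 2 the count of 11 was 7.

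Of 7 genes of mitochondrial transcription, 2 fell in both mutants and 1 rose in the single mutants. The shares called, 42.9% and 28.6%, were near the 42.0% and 32.2% of all rows. The factor tfam, which packages the genome and starts transcription, was at 29.5, 26.8 and 24.9 CPM in wild type, 21.1, 16.1 and 17.4 CPM in single-mutant larvae and 19.2, 21.4 and 19.1 CPM in double-mutant larvae. It fell in both (log2 fold change −0.57 and −0.45, edgeR adjusted p = 0.000778 and 0.00614) and under all 19 alternatives. The mitochondrial RNA polymerase gene polrmt was at 24.7 ± 1.48 CPM in wild type, 16.7 ± 2.56 CPM in single-mutant larvae and 18.2 ± 1.47 CPM in double-mutant larvae (log2 fold change −0.56 and −0.43, edgeR adjusted p = 0.00115 and 0.00890), and without double-mutant replicate 1 it was not called in the double mutants (adjusted p 0.0666). The gene that rose, mterf2, of the termination factor family, had a log2 fold change of 0.41 (edgeR adjusted p = 0.0430) and lost its call without wild-type replicate 1 or 2 or single-mutant replicate 2 or 3 (adjusted p 0.0958 to 0.157). Without single-mutant replicate 1 the list had 5 and 4 calls. Both tfam and polrmt were lower in the same genotypes in which 6 or 7 mitochondrial coding genes were higher.

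The list of 9 genes for nucleotide supply to the mitochondrial genome also holds samhd1 and tymp, which encode enzymes that break nucleotides down. Of the 9, 3 fell and 2 rose in the single mutants and 2 fell in the double mutants. This is 55.6% and 22.2% called beside 42.0% and 32.2% of all rows. Both samhd1 and tymp were among the 3 that fell. The third, suclg1, fell in both mutants (log2 fold change −0.36 and −0.30, edgeR adjusted p = 0.000886 and 0.00427). For tymp (log2 fold change −0.66, edgeR adjusted p = 0.0288) the call was lost in 3 refits that leave out a library. The dNTP hydrolase gene samhd1, which also has a role in antiviral defence, was at 15.3 ± 0.912 CPM in wild type, 6.69 ± 0.365 CPM in single-mutant larvae and 5.86 ± 0.605 CPM in double-mutant larvae (log2 fold change −1.19 and −1.38, edgeR adjusted p = 3.99e-06 and 1.55e-06). The transaminase gene abat, at 277 ± 18.0 CPM in wild type, 380.5 ± 67.1 CPM in single-mutant larvae and 296 ± 4.88 CPM in double-mutant larvae, rose in the single mutants (log2 fold change 0.46, edgeR adjusted p = 0.00370). The second that rose, rrm2b, a ribonucleotide reductase subunit, had a log2 fold change of 0.33 (edgeR adjusted p = 0.0313). Without wild-type replicate 2 or single-mutant replicate 2 the count of 5 in the single mutants was 3.

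Of 19 genes that process and stabilise mitochondrial RNA, 14 fell in the single mutants and 10 in the double mutants and none rose (73.7% and 52.6% called beside 42.0% and 32.2% of all rows), with medians of −0.53 and −0.31. With a library left out the counts were 10 to 14 and 7 to 12. The RNA-binding protein gene grsf1, whose product sits in mitochondrial RNA granules, was at 29.7 ± 1.19 CPM in wild type, 16.7 ± 1.59 CPM in single-mutant larvae and 20.0 ± 0.298 CPM in double-mutant larvae (log2 fold change −0.83 and −0.57, edgeR adjusted p = 8.32e-06 and 0.000306). The FASTK family gene tbrg4 was at 50.5 ± 1.83 CPM in wild type, 26.6 ± 3.92 CPM in single-mutant larvae and 30.1 ± 4.14 CPM in double-mutant larvae (log2 fold change −0.93 and −0.74, edgeR adjusted p = 1.63e-05 and 0.000156). A subunit gene of mitochondrial RNase P, hsd17b10, fell by 0.56 and 0.55 on the log2 scale (edgeR adjusted p = 4.51e-05 and 7.23e-05). Messenger-stabilising slirp fell in both (log2 fold change −0.73 and −0.68, edgeR adjusted p = 9.52e-05 and 0.000244), while its partner lrpprc had log2 fold changes of −0.05 and 0.01 (edgeR adjusted p = 0.562 and 0.898).

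Of 16 genes for the modification of mitochondrial transfer RNAs, 12 fell in the single mutants and 8 in the double mutants, 75.0% and 50.0% beside 42.0% and 32.2% of all rows, with medians of −0.62 and −0.43. Several products of this list, those of qtrt1, trit1 and pus1 among them, also act on cytosolic transfer RNAs. The queuosine enzyme gene qtrt1 was at 9.12 ± 1.53 CPM in wild type, 3.53 ± 0.0832 CPM in single-mutant larvae and 4.91 ± 1.105 CPM in double-mutant larvae (log2 fold change −1.37 and −0.90, edgeR adjusted p = 3.37e-05 and 0.00114). The isopentenyl transferase gene trit1 was at 22.6 ± 2.39 CPM in wild type, 11.6 ± 1.65 CPM in single-mutant larvae and 13.7 ± 1.103 CPM in double-mutant larvae (log2 fold change −0.95 and −0.72, edgeR adjusted p = 2.71e-05 and 0.000384). The pseudouridine synthase gene pus1 fell in the single mutants (log2 fold change −0.86, edgeR adjusted p = 0.000322) and had a log2 fold change of −0.36 in the double mutants (edgeR adjusted p = 0.0715). Without wild-type replicate 1 or double-mutant replicate 1 or 2 the count of 8 was 5.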

How the data were processed

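RNA was sequenced from 9 libraries, 3 per genotype. The deposited values are raw counts per gene name, made by the authors with cutadapt, STAR and featureCounts on the build GRCz11, per the submitters' processing notes, which also name DESeq2. The annotation release is, like the strand setting and the handling of reads with several matches, not given in the sources used here, so reads shared with nuclear copies of mitochondrial DNA are uncertain. All 9 sample columns matched a label and 0 were unused.

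Rows were kept with edgeR 4.0.16 filterByExpr by genotype, which left 21694 of 28802. Libraries were scaled with TMM factors and tested with the quasi-likelihood F test with robust estimation in 1 fit over 9 libraries with 6 residual degrees of freedom. P-values were adjusted by Benjamini-Hochberg over all tested rows and called under 0.05. The SE is the size of the log2 fold change divided by the root of F. The steps were run on simulated data in which far fewer genes changed than were called here, in single mutants only. Scaling under a change as broad as in these data was not tested by it. Alternatives used DESeq2 1.42.0, limma 3.58.1, other scaling and filters, a replicate block and leaving out each library.

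Older gene symbols, lengths and neighbours came from RefSeq on GRCz12tu, another build, so no coordinates are given. Named genes are the 13 mitochondrial rows and genes drawn from the 4 members lowest in adjusted p for each list and comparison. Not all of those are printed. The gene lrpprc is outside this rule and was chosen after its values were seen. Members and lists were chosen with earlier results of these data known. Shares are given with the values or SD of 3 libraries a genotype and without counting intervals.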

Additional observations from a re-analysis of the deposited data

How the results depend on the processing

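The count of 8 mitochondrial genes called in the single mutants was 5 with library totals alone and 5 with only the 6 libraries compared, and 5 to 9 when each library was left out in turn. The count of 7 in the double mutants was 5 to 8 and the count of 0 between the mutants was 0 to 1 under the latter. Between the mutants, the 362 calls over all rows became 883 with DESeq2, 184 with only the 6 libraries compared and 108 to 3860 with a library left out. TMM factors without the mitochondrial rows turned the split of all rows in the single mutants from 4222 higher and 4894 lower to 4658 and 4389, and library totals alone gave 3640 and 5485. Whether a shared replicate number pairs libraries is not on record. Deviations of same-numbered libraries from their genotype means correlated by −0.0354 to 0.0609 over all tested rows. Rows with few counts are among these, so the correlations cannot decide it. With the replicate number as a block, 7, 5 and 0 mitochondrial genes and 9054, 7006 and 373 rows were called in the 3 comparisons.

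Values near 0 changed sign. In the single mutants mt-nd2 was at 0.009, 0.028, 0.002, 0.009, 0.027, 0.028 and 0.004 under other scalings, DESeq2, other filters and the 6 libraries alone, and the 952-base row at −0.048 with library totals. In the double mutants the 952-base row was at 0.007, 0.011, 0.002, 0.007, 0.011, 0.011 and 0.005 under those same settings, and with library totals mt-nd4l was at −0.024, mt-cyb at −0.025 and sdhb at −0.031. Between the mutants mt-nd4 was at 0.008 with library totals, and mt-nd5 at −0.005, −0.004 and −0.005 with TMM factors without mitochondrial rows, no filter and a stricter filter. With a library left out in turn, log2 fold changes that crossed 0 ranged as follows: mt-nd2 −0.056 to 0.051, the 952-base row −0.061 to 0.143, sdha −0.087 to 0.009 in the single mutants, mt-nd4l −0.009 to 0.046, the 952-base row −0.076 to 0.116, sdhb −0.014 to 0.062, tRNA-length row 13 −0.34 to 0.143 in the double mutants, mt-co3 −0.063 to 0.023, mt-nd4 −0.041 to 0.02, mt-nd5 −0.04 to 0.03, mt-nd6 −0.021 to 0.046, the 952-base row −0.05 to 0.019, tRNA-length row 13 −0.041 to 0.455, tRNA-length row 24 −0.803 to 0.15 between the mutants.

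Counts of list members moved too. As background, calls over all rows with 1 library left out were 7327 to 10363 in the single mutants and 5230 to 8697 in the double mutants. For the single mutants, the 6 libraries alone gave 5 calls in complex I, 0 in complex II, 2 in complex III, 6 in complex V and 16 in all nuclear subunits. Library totals gave 15 in complex I, and no filter 3 in complex III. For the double mutants, DESeq2 gave 4 in complex I, complex II had 0 under 7 settings and 2 with library totals or the 6 libraries alone, biogenesis regulators had 5 under each of these, and the 6 libraries gave 5 in transcription and 2 in ribosomal RNA modification. With 1 library left out, the counts in the single mutants were 1 to 11 for complex I, 0 to 1 for complex II, 1 to 5 for complex III, 2 to 5 for complex IV, 4 to 12 for complex V, 10 to 33 for all nuclear subunits, 2 to 5 for transcription, 7 to 12 for replication, 3 to 6 for nucleotide supply, 10 to 12 for transfer RNA modification and 0 to 3 for ribosomal RNA modification. For the double mutants they were 0 to 9 for complex I, 0 to 2 for complex II, 2 to 4 for complex III, 1 to 4 for complex IV, 4 to 12 for complex V, 9 to 30 for all nuclear subunits, 1 to 4 for transcription, 5 to 10 for transfer RNA modification, 1 to 2 for ribosomal RNA modification and 2 to 6 for biogenesis regulators. Without small non-coding RNA rows in the total, the coding share was 2.334%, 2.698% and 2.576% in wild type, single and double mutants, and the rRNA-length share 1.379% and 1.414% in wild type and double mutants. As a proportion of raw counts mt-co1 was 36.94%, 41.3% and 39.61%, since no length scaling is applied. For the other changes the cause was not tested.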

Other observations

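Of 6 regulators of mitochondrial biogenesis, 1 rose and 3 fell in the single mutants, and 1 rose and 2 fell in the double mutants, 66.7% and 50.0% called beside 42.0% and 32.2% of all rows. The orphan receptor gene esrra, which drives nuclear genes of oxidative metabolism, was at 44.2 ± 1.99 CPM in wild type, 30.1 ± 3.0 CPM in single-mutant larvae and 29.1 ± 0.388 CPM in double-mutant larvae (log2 fold change −0.56 and −0.60, edgeR adjusted p = 0.000148 and 0.000119). The coactivator gene ppargc1b was at 43.7 ± 2.61 CPM in wild type, 56.3 ± 7.18 CPM in single-mutant larvae and 54.4 ± 0.624 CPM in double-mutant larvae and rose in both (log2 fold change 0.37 and 0.32, edgeR adjusted p = 0.00516 and 0.0157), though not without wild-type replicate 1 in the double mutants (adjusted p 0.0541). The transcription factor gene yy1a fell in both (log2 fold change −0.52 and −0.45, edgeR adjusted p = 0.000380 and 0.00178). For nrf1 the call in the single mutants (log2 fold change −0.25, edgeR adjusted p = 0.0241) was lost in 7 of 9 refits that leave out a library, each of wild type among them. Without single-mutant replicate 1 all 6 were called in the double mutants, 1 higher and 5 lower.

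Of 15 genes used as a measure of mitochondrial content, 8 fell in the single mutants and 7 in the double mutants and none rose, 53.3% and 46.7% beside 42.0% and 32.2% of all rows, with medians of −0.24 and −0.16. The chaperonin gene hspd1 was at 308 ± 9.92 CPM in wild type, 178 ± 27.1 CPM in single-mutant larvae and 216 ± 19.6 CPM in double-mutant larvae, and the cristae organiser immt at 164 ± 3.71 CPM in wild type, 118 ± 5.73 CPM in single-mutant larvae and 125 ± 4.05 CPM in double-mutant larvae. The outer-membrane channel genes vdac1, vdac2 and vdac3 and citrate synthase, cs, were not called in either mutant, with log2 fold changes between −0.11 and 0.08 (edgeR adjusted p from 0.26 to 0.857); they were named after their values were seen. Prohibitin gene phb2b was the 1 gene of this list called between the mutants (log2 fold change 0.46, edgeR adjusted p = 0.0332), 6.67% beside 1.67% of all rows. It was at 38.5, 27.4 and 31.7 CPM in single-mutant larvae and 45.6, 43.3 and 45.7 CPM in double-mutant larvae. Single-mutant replicate 1 thus lay nearest the double mutants. Of 7 genes for the modification of mitochondrial ribosomal RNA, 2 fell in the single mutants and 1 in the double mutants, 28.6% and 14.3% beside 42.0% and 32.2% of all rows. Without wild-type replicate 3 or single-mutant replicate 3 the first count was 1, without single-mutant replicate 2 it was 0 by edgeR, and without single-mutant replicate 1 the second was 2. The pseudouridine synthase gene rpusd4 was among them in both, with log2 fold changes of −0.53 and −0.58 (edgeR adjusted p = 0.00912 and 0.00691), and the first was lost without single-mutant replicate 2 (adjusted p 0.0543).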
